A study of Mus musculus with 10 samples.

Results

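Proteins that enter the endoplasmic reticulum (ER) are folded with disulfide bonds, which are made by oxidases and peroxidases of the ER lumen and membrane. The 9 genes described here encode these enzymes: the ER oxidases Ero1a and Ero1b, the peroxidases Prdx4, Gpx7 and Gpx8, the quiescin sulfhydryl oxidases Qsox1 and Qsox2, and the vitamin K epoxide reductases Vkorc1 and Vkorc1l1. They were chosen by name, and all 9 were found among 21887 protein-coding genes of the RefSeq table. A peak was assigned to a gene when its summit lay from 5 kb before to 5 kb after the gene's span.

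XBP-1 is the transcription factor made from Xbp1 mRNA after Ern1, an ER membrane kinase and nuclease, has spliced it during the unfolded protein response. Chromatin immunoprecipitation followed by sequencing recorded its occupancy, with an antibody labelled as against Xbp-1s, in livers of C57BL/6J mice. There were 4 groups of 2 libraries: wild-type fed mice (Fed), wild-type fasted mice (Fasted), wild-type controls of the knockout experiment (WT) and mice with a liver-specific knockout of Ern1 (Ern1-LKO). A further 2 libraries of liver input DNA without antibody served as the background of peak calling. The labels give no age, no length of the fast, no feeding state of the WT and Ern1-LKO mice and no driver of the knockout, and do not say which libraries came from separate animals. The labels name liver and no sort of its cells, so the peaks may come from several cell types.

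The 8 peak lists differed widely in length, from 698 peaks in Ern1-LKO replicate 1 to 82975 in Fed replicate 1, at 4340956 to 17399899 kept tags. Within the Fasted, WT and Ern1-LKO groups 1 list was far shorter than the other: Fasted replicate 2 held 19237 peaks against 53973, WT replicate 1 6258 against 30327, and Ern1-LKO replicate 1 698 against 30796. Whether a gene had a peak thus moved with the length of the list, and the part of list length in any difference between groups was not tested. The lists of Fed and Fasted livers were called against 1 input library, those of the knockout experiment against the other, so groups were compared only within those pairs. Among 4 hepatocyte genes (Alb, Apoa1, Ttr and Cyp2e1) the number with a peak in both replicates was 0 for Fed, 0 for Fasted, 1 for WT (Alb) and 0 for Ern1-LKO, where 68.8%, 43.2%, 18.3% and 3.54% of all genes had one. A peak list measures occupancy and not expression, so it cannot check the tissue.

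As background, ERO1 enzymes take electrons from protein disulfide isomerases and pass them to oxygen, which yields hydrogen peroxide. Prdx4, Gpx7 and Gpx8 use that peroxide to oxidise further isomerases. QSOX enzymes oxidise proteins directly and are found mostly in the Golgi and outside cells. Vkorc1 recycles vitamin K for the carboxylation of clotting factors, a task of liver cells, and Vkorc1l1 is its close relative. Spliced XBP-1 is known to act on promoters of ER genes through short elements, among them the unfolded protein response element (UPRE, TGACGTGG) and the ER stress response element (ERSE), a CCAAT box a fixed distance from CCACG.

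The promoter windows of 4 of the genes are shown: Ero1b and Ero1a for their highly ranked peaks, Prdx4 for its paired motif and Gpx8 for a motif match without a peak. Each window is from RefSeq, build GRCm38.p6 (the assembly of mm10), and runs 5′ to 3′ on the gene's own strand from 250 bases before to 50 bases after the annotated start. Positions are counted from that start, with negative values upstream. In Ero1b (chr13:12565633-12565932, plus strand) the capitals mark the fixed bases of an ERSE read on the opposite strand, from -201 to -183.
Ero1b: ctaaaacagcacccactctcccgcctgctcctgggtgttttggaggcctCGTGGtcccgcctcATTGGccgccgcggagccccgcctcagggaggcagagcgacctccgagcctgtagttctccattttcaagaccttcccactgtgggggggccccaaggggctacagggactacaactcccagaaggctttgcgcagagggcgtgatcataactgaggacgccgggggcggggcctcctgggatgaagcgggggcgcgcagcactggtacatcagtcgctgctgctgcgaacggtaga
In Ero1a (chr14:45318523-45318822, minus strand) the capitals mark the ACGT core shared by UPRE-like sites, from -62 to -59.
Ero1a: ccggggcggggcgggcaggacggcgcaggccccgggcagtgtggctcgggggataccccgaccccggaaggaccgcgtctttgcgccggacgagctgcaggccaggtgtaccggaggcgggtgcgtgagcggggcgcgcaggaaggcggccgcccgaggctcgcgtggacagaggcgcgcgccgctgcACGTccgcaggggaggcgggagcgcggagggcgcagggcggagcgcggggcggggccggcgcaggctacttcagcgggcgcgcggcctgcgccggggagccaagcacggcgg
In Prdx4 (chrX:155338411-155338710, minus strand) the capitals mark a pair of overlapping CCACG matches, 1 on each strand, from -53 to -46.
Prdx4: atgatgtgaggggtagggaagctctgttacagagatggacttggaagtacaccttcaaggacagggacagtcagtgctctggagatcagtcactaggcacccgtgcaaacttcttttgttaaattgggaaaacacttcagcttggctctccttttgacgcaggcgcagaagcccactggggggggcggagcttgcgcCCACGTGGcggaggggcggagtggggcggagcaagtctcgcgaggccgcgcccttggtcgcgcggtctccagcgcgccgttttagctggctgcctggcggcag
In Gpx8 (chr13:113046339-113046638, minus strand) the capitals mark CCACG, from -172 to -168.
Gpx8: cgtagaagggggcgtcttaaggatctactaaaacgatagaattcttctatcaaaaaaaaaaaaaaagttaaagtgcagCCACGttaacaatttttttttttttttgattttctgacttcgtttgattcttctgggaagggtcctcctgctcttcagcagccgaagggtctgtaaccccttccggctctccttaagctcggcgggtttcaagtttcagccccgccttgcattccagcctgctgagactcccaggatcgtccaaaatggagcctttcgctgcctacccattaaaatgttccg

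The 6 motifs were searched on both strands of all 9 windows. They were the core ACGT, its longer form GACGTG, the pentamer CCACG, and by name the UPRE, the ERSE and its shorter variant ERSE-II. The UPRE contains the first pair. With both strands read, the UPRE and both forms of ERSE also contain the pentamer, so their matches overlap. The ERSE was found in Ero1b only, where the other strand reads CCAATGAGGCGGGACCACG. Of 21263 windows of protein-coding genes 0.141% held an ERSE, 0.705% a UPRE and 0.0517% an ERSE-II. No member held a UPRE or an ERSE-II. GACGTG was found in Ero1a, at -63 to -58 on the opposite strand, against 7.17% of all windows. ACGT was found in Ero1a, Prdx4, Gpx8, Qsox1 and Qsox2, and CCACG in Ero1a, Ero1b, Prdx4, Gpx8 and Vkorc1. These short motifs are common, at 33.0% and 37.4% of all windows. A match is a run of letters, and it is not by itself a bound site.

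Ero1b and Ero1a carried the best-ranked peaks of the 9 genes in the Fed and WT libraries, while Vkorc1l1 led in Fasted replicate 2 and Qsox1 in Ern1-LKO replicate 2. At their starts Vkorc1l1, Qsox1, Qsox2, Gpx7 and Prdx4 had peaks in 5 to 7 libraries, Vkorc1 in 1 library and Gpx8 in none. A start-site peak is one with its summit within 500 bases of the annotated start, a distance chosen after the values were seen. The fold is the authors' fold enrichment of the immunoprecipitated library over the local background at the summit, and the rank is the position of the peak in its own list when ordered by the authors' p-value. Both describe a peak within its list, and ranks in lists of different length do not measure a change.

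**Figure D1:**
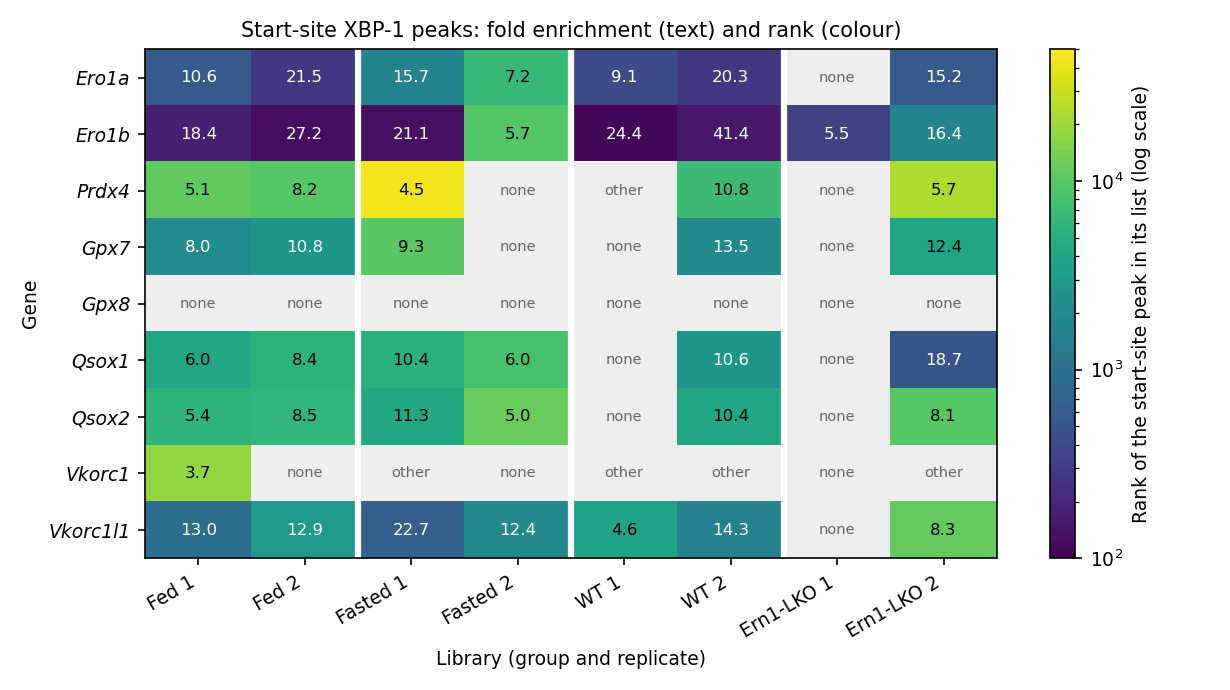
Start-site peaks of the 9 genes (rows) in the 8 libraries (columns, group and replicate). The text gives the authors' fold enrichment of the best-ranked start-site peak, the colour its rank in that list on a log scale, "other" a peak elsewhere within 5 kb of the gene only, and "none" no peak. Ero1b was filled in 8 libraries, Ero1a and Vkorc1l1 in 7, and Gpx8 in 0.

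Ero1b (chromosome 13, 12565818 to 12609533) encodes the ERO1 enzyme best known from secretory tissues such as pancreas. It was the only member with a peak in all 8 libraries, where 2.64% of all genes had one. Its start-site folds were 18.4 and 27.2 in Fed replicates 1 and 2, 21.1 and 5.7 for Fasted, then 24.4 and 41.4 for WT, then 5.5 and 16.4 for Ern1-LKO. The Fed and WT folds were high in both libraries, while the Fasted and Ern1-LKO replicates differed from each other. The ranks were 173 and 125 for Fed, then 133 and 9593 for Fasted, then 110 and 154 for WT, then 337 and 1703 for Ern1-LKO.

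The summit of the Ero1b peak lay inside or near the ERSE in 6 libraries. It was at -201 and -157 for Fed, -183 in Fasted replicate 1, -200 and -151 for WT and -168 in Ern1-LKO replicate 1, at most 32 bases from the element. In Fasted replicate 2 and Ern1-LKO replicate 2 the summit was downstream of the start, at 133 and 120, which is 316 and 303 bases from the element. The authors' pooled lists placed the summit at -202, -180, -172 and -164 for Fed, Fasted, WT and Ern1-LKO.

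Across all genes, the promoter windows with a single ERSE and a start-site peak give the setting for this. The best-ranked summit was within 50 bases of the middle of the element in 63.2% of 19 such windows in Fed replicate 1, 62.5% of 16 in Fed replicate 2, 56.2% of 16 in Fasted replicate 1 and 40.0% of 10 in Fasted replicate 2. In the other comparison it was 91.7% of 12 in WT replicate 1, 71.4% of 14 in WT replicate 2, 11 of 11 in Ern1-LKO replicate 1 and 46.2% of 13 in the second Ern1-LKO replicate. Ero1b, itself 1 of these windows, lay within that distance in every library but Fasted replicate 2 and Ern1-LKO replicate 2, which are the libraries with the lowest shares. Of 29 genes with an ERSE, 9 (31.0%) had a start-site peak in all 8 libraries, against 1.32% of genes with a window and no ERSE.

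**Figure D2:**
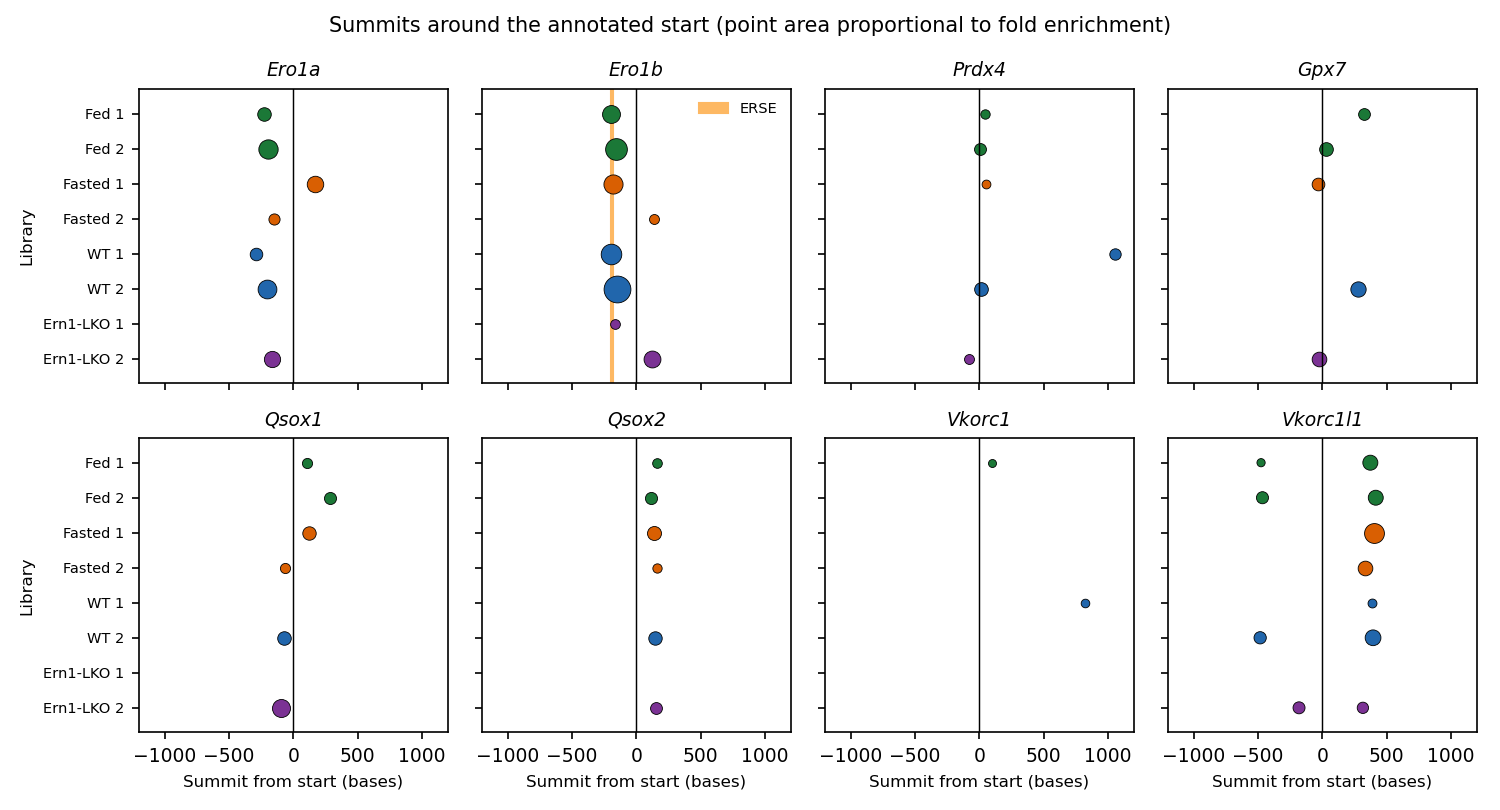
Positions of peak summits around the annotated start (vertical line at 0, in bases, downstream to the right) for the 8 genes with any peak, by library. Each point is 1 peak with its area proportional to fold enrichment and its colour showing the group, and the band in the Ero1b panel is the ERSE. In Ero1b the summits of 6 libraries lie at or beside the band and those of Fasted replicate 2 and Ern1-LKO replicate 2 at 133 and 120.

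Ero1a (chromosome 14, 45283087 to 45318572) encodes the widely expressed ERO1 oxidase. It had a start-site peak in every library except Ern1-LKO replicate 1. The folds there were 10.6 and 21.5 for Fed, then 15.7 and 7.2 for Fasted, then 9.1 and 20.3 for WT, then 15.2 in Ern1-LKO replicate 2. The ranks were 586 and 271 for Fed, then 1616 and 6438 for Fasted, then 410 and 273 for WT, then 561 in Ern1-LKO replicate 2. Summits lay from -288 to -150 in 6 libraries and at 166 in Fasted replicate 1. They did not coincide with the ACGT core.

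Within the pair, Ero1b ranked above Ero1a in 5 of the 7 libraries that held both, namely both Fed, both WT and Fasted replicate 1. In Fasted replicate 2 and Ern1-LKO replicate 2 the start-site peak of Ero1a ranked above that of Ero1b. In Ern1-LKO replicate 1, with its short list, Ero1b alone was present.

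Ero1a was the only member with a peak inside the gene, more than 1 kb from the start, shared by both Fed and both Fasted libraries. It had a pair of such sites, 23.67 to 23.71 kb and 29.45 to 29.50 kb after the start. At the first site the folds were 5.9 and 12.2 for Fed, then 15.3 and 12.3 for Fasted, then 7.2 in Ern1-LKO replicate 2. The summit was at the same base, chromosome 14 position 45294862, in Fed replicate 2 and in both Fasted libraries. At the second site they were 7.2 and 10.1 for Fed, then 11.0 and 9.9 for Fasted, then 5.6 in Ern1-LKO replicate 2. Neither site was called in either WT library or in Ern1-LKO replicate 1.

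Set against the start-site peak of the same list, the fold at the first inside site was 0.55 and 0.57 times as large in the Fed libraries and 0.97 and 1.70 times as large in the Fasted libraries. In Fasted replicate 2 the inside peak, at rank 3027, thus stood above the start-site peak at rank 6438. The Fed and Fasted values did not overlap, but the same held for 24.2% of the 566 genes with a start-site peak and a shared inside peak in all 4 libraries, and the opposite order for 5.48%. Ero1a was therefore 1 of many genes with this order. At the second inside site the ratio was 0.68 and 0.47 for Fed, then 0.71 and 1.38 for Fasted. The groups were thus barely apart there. The ratio was chosen after the values were seen and was not tested.

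**Figure D3:**
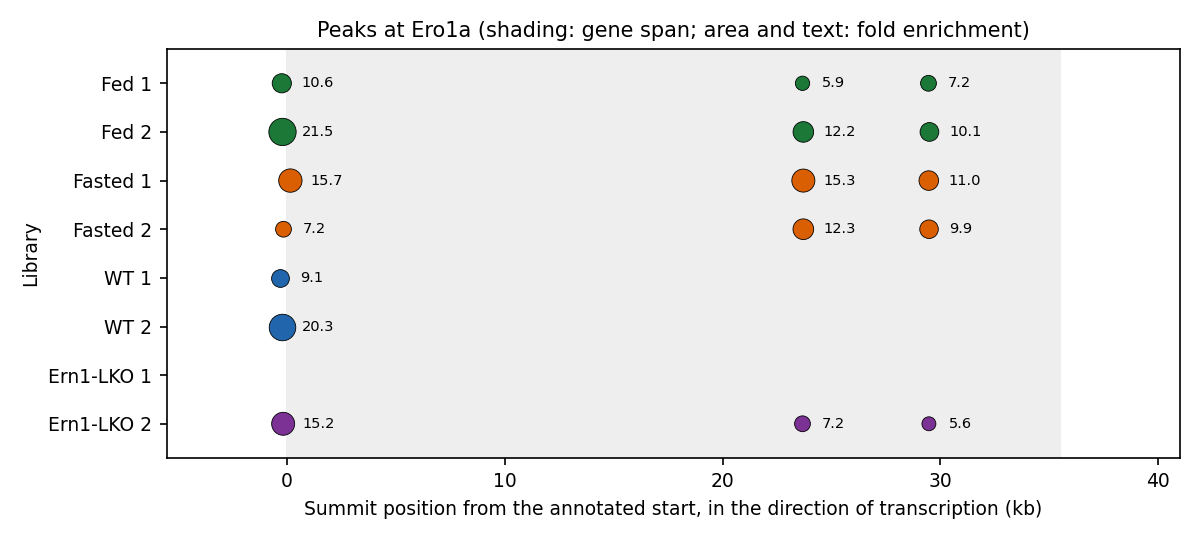
Peaks at Ero1a by library, with the summit position from the annotated start in kb along the direction of transcription, the gene span shaded, and the point area and text giving fold enrichment. The start-site peak was present in 7 libraries and the sites near 23.7 and 29.5 kb in both Fed, both Fasted and Ern1-LKO replicate 2, with none in WT.

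Prdx4 (chromosome X, 155323918 to 155342272), the ER peroxiredoxin, had peaks of lower rank. Its start-site folds were 5.1 and 8.2 for Fed, then 4.5 in Fasted replicate 1, 10.8 in WT replicate 2 and 5.7 for replicate 2 of Ern1-LKO, at ranks 10907, 10044, 44231, 7083 and 23345. No peak was called in Fasted replicate 2 or Ern1-LKO replicate 1. In WT replicate 1 the only peak (fold 7.5, rank 1141) lay 1057 bases after the start, while WT replicate 2 had its summit at 13. The WT libraries thus shared the gene but not the site, and the pooled WT list held both, at 1063 and 15. The other start-site summits lay from -77 to 50, beside the CCACG pair in Ern1-LKO replicate 2 and downstream of it in the others.

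Gpx7 (chromosome 4, 108400217 to 108406713) and Gpx8 (chromosome 13, 113042757 to 113046430) encode related ER glutathione peroxidases, and only the first had peaks. Gpx7 had a start-site peak in 5 libraries, with folds of 8.0 and 10.8 for Fed, then 9.3 in Fasted replicate 1, 13.5 in WT replicate 2 and 12.4 for replicate 2 of Ern1-LKO. Its ranks were 1996 and 2665 for Fed, then 10140 in Fasted replicate 1, 1852 in WT replicate 2 and 3857 for replicate 2 of Ern1-LKO. It was absent from the shorter list of each other group, that is Fasted replicate 2, WT replicate 1 and Ern1-LKO replicate 1.

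Gpx8 had no peak in any of the 8 libraries, as had 19.4% of all genes. It lies within the span of Cdc20b, and the peak nearest to it in 6 libraries was 7.63 to 7.73 kb from its span, outside the window. That peak had folds of 7.9 and 7.6 for Fed, then 10.3 and 5.4 for Fasted, then 13.3 in WT replicate 2 and 11.7 for replicate 2 of Ern1-LKO. Its summits lay just upstream of the annotated start of Cdc20b, at -350 to -255 from it. A site below the authors' threshold would not appear in these lists, so the absence of a peak does not show the absence of occupancy.

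Qsox1 (chromosome 1, 155778155 to 155812899) and Qsox2 (chromosome 2, 26209124 to 26237399) encode sulfhydryl oxidases that join an oxidase to thioredoxin-like domains. Both had a start-site peak in the same 6 libraries and none in WT replicate 1 or Ern1-LKO replicate 1. The folds at Qsox1 were 6.0 and 8.4 for Fed, then 10.4 and 6.0 for Fasted, then 10.6 in WT replicate 2 and 18.7 for replicate 2 of Ern1-LKO. At Qsox2 they were 5.4 and 8.5, 11.3 and 5.0, 10.4 and 8.1 in the same order. The folds of the pair were furthest apart in Ern1-LKO replicate 2, where Qsox1 ranked 504 and Qsox2 9881.

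The Qsox1 summits lay at 109 and 285 for Fed, then 121 in Fasted replicate 1 and -67, -76 and -98 in Fasted replicate 2, WT replicate 2 and Ern1-LKO replicate 2. Those of Qsox2 were closer together, from 113 to 161. Qsox1 also had the most scattered peaks of the group, 23 over the 8 lists, of which 12 were in Fed replicate 1. Just past the gene's end lay a pair of sites. The nearer, 34.93 to 34.99 kb after the start, was called in both Fed libraries and Fasted replicate 1. The farther, at 35.25 to 35.29 kb, was called in Fed replicate 1, Fasted replicate 1, WT replicate 2 and Ern1-LKO replicate 2. In Fed replicate 2 the peak of the nearer site was 595 bases long and covered the farther site as well. At Qsox2 the 5 peaks away from the start lay in or beside Lhx3, the neighbouring gene (chromosome 2, 26200212 to 26208249).

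Vkorc1 (chromosome 7, 127893063 to 127895658) and Vkorc1l1 (chromosome 5, 129942109 to 129986692) encode the vitamin K epoxide reductase and its relative, and their peaks lay in different places. Vkorc1l1 had a start-site peak in 7 libraries, all but Ern1-LKO replicate 1. Its folds were 13.0 and 12.9 for Fed, then 22.7 and 12.4 for Fasted, then 4.6 and 14.3 for WT, then 8.3 in Ern1-LKO replicate 2, and its ranks 945, 2903, 668, 1928, 3759, 1483 and 11326. The best-ranked summit was 332 to 415 bases after the start in 6 libraries. In Ern1-LKO replicate 2 it was at -181, with another at 315 (fold 7.4). A further peak lay from -483 to -465 in both Fed libraries and WT replicate 2. In Fasted replicate 1 the peak was 1113 bases long and covered that place as well.

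Vkorc1 itself had a start-site peak in Fed replicate 1 only, with a fold of 3.7 at rank 18381 and its summit at 100. In WT replicate 1 a peak (fold 4.3, rank 4120) lay 822 bases after the start. The peaks in Fasted replicate 1, WT replicate 2 and Ern1-LKO replicate 2, and 2 further ones in Fed replicate 1, lay 6.44 to 7.24 kb after the start, within Prss53, the next gene (chromosome 7, 127885444 to 127892965). Vkorc1 had thus a peak by the window in 5 libraries, but near its own start in 1. These were among the peaks nearest to the edge of the window, the last at 4.69 kb from the span of Vkorc1 (fold 3.4). The nearest peak left out was at 5.94 kb from Qsox2 (fold 6.0).

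By library, 8 of the 9 genes had a peak in Fed replicate 1, where 76.1% of all genes did, 7 in Fed replicate 2 (71.2%), 8 in Fasted replicate 1 (73.1%) and 5 in Fasted replicate 2 (43.6%). In the knockout experiment 5 had one in WT replicate 1 (19.6%), 8 in WT replicate 2 (65.0%), 1 in Ern1-LKO replicate 1 (3.58%) and 8 in the second Ern1-LKO replicate (62.4%). Called in both replicates were 7 for Fed (68.8% of all genes), 5 for Fasted (43.2%), 5 for WT (18.3%) and 1 for Ern1-LKO (3.54%). The Fed and Fasted counts lie near the share for all genes. The 5 for WT include Prdx4 and Vkorc1, whose peaks in the WT replicates lay at different sites. The counts in the last 3 groups rested on the short lists: 8 genes had a peak in Fasted without replicate 2, 8 for WT without replicate 1 and 8 for Ern1-LKO without replicate 1. The members' median span was 28.3 kb, against 17.2 kb for all genes, so their windows were wider.

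At the starts alone, 8 and 7 of the 9 had a peak in Fed replicates 1 and 2 (59.4% and 52.4% of the 17492 genes with a promoter window), 7 and 5 in the Fasted replicates (54.4% and 24.3%), 3 and 7 in the WT replicates (10.8% and 49.7%) and 1 and 7 in the Ern1-LKO replicates (2.39% and 44.7%). Called in both replicates were 7 for Fed (49.1%), 5 for Fasted (23.2%), 3 for WT (9.87%) and 1 for Ern1-LKO (2.24%). Ero1b had a start-site peak in all 8 libraries (1.37% of those genes), and Ero1a, Ero1b and Vkorc1l1 in at least 7 (6.85%). Of the 89 member peaks in the 8 lists, 49 lay within 500 bases of the start, 22 elsewhere inside the gene and 18 outside its span. The best-ranked peak was a start-site peak in 8 of 8 genes with a peak in Fed replicate 1, against 59.3% of all such genes, in 7 of 7 in Fed replicate 2 (57.2%), 7 of 8 in Fasted replicate 1 (58.9%) and 4 of 5 in Fasted replicate 2 (43.1%). In WT it was 3 of 5 (48.2%) and 7 of 8 (63.8%), and in Ern1-LKO 1 of 1 (65.4%) and 7 of 8 (59.9%). The exceptions were Vkorc1 in 4 libraries, Ero1a in Fasted replicate 2 and Prdx4 in WT replicate 1.

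The first comparison addresses whether XBP-1 sites differ between fed and fasted livers. No member (0 of 9) had a peak in each Fed library without one in Fasted, where 1.20% of all genes did, and no member (0) the reverse (0.0731%). At the starts alone both counts were 0 as well (1.80% and 0.309%). Without Fasted replicate 1, Prdx4 and Gpx7 had a peak in both Fed libraries and not in Fasted replicate 2, as did 26.5% of all genes. The count was 0 without Fasted replicate 2 (1.30%), Fed replicate 1 (1.91%) or Fed replicate 2 (5.68%), and the reverse count was 0 without Fasted replicate 2 (1.18%). When only peaks with a −log10 q of at least 5 were kept, Prdx4 alone was Fed only (0.909% of all genes), and likewise at 10 (0.658%) and at a fold of at least 5 (0.567%). The Prdx4 peak of Fasted replicate 1 had a −log10 q of 4.90 and a fold of 4.5, and so fell just short of the limits of 5. Among equal numbers of top peaks Ero1a alone was Fed only (0.932%). Among the 698 best-ranked peaks of each library, the length of the shortest list, were Ero1a and Ero1b in both Fed libraries, Ero1b and Vkorc1l1 in Fasted replicate 1 and no member (0) in Fasted replicate 2. Such a peak was held by 3.99% and 3.95% of all genes in the Fed libraries, 3.91% in Fasted replicate 1 and 2.93% in Fasted replicate 2.

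The count among top peaks was 2.0 ± 0.0 for Fed, then 1.0 ± 1.4 for Fasted (SD, n = 2), a difference of 1.0 that did not exceed the spread between replicates (exact permutation test, both sides, p = 1.0, smallest possible 0.33). As all counts but 1 were equal, every split of the libraries gives a difference of the same size. This p was thus fixed and decides nothing. Without Fasted replicate 2 the difference was 0.0. Fed replicate 2 and Fasted replicate 1 are the pair of Fed and Fasted libraries closest in kept tags, 7765561 and 8377833, and in list length, 47357 and 53973 peaks. Their ranks, in that order, were 125 and 133 for Ero1b, 271 and 1616 for Ero1a, 2903 and 668 for Vkorc1l1, 2665 and 10140 for Gpx7, 10044 and 44231 for Prdx4, 5540 and 5229 for Qsox1 and 6048 and 4353 for Qsox2. Ero1b and Qsox1 each stood at nearly the same place in both lists. Ero1a, Gpx7 and Prdx4 stood higher in the Fed list, and Vkorc1l1 and Qsox2 in the Fasted list. With 1 library on each side these differences have no replicate check. In the pooled lists 8 members had a peak for Fed (77.3% of all genes) and 6 for Fasted (69.0%). Prdx4 and Vkorc1 were called in the pooled Fed list only (9.01%) and no member (0) in the pooled Fasted list only (0.768%).

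The second comparison addresses which XBP-1 sites differ when hepatic Ern1 is deleted. The peak lists hold no measure of the deletion itself. No member (0 of 9) had a peak in each WT library without one in Ern1-LKO (0.896% of all genes), and no member (0) the reverse (0% of all genes). At the starts alone both counts were again 0 (0.835% and 0.0400%). Without Ern1-LKO replicate 2 the first count was 4, namely Ero1a, Prdx4, Vkorc1 and Vkorc1l1, as for 15.5% of all genes, beside the 698 peaks of Ern1-LKO replicate 1. It was 0 without Ern1-LKO replicate 1 (0.937%), WT replicate 1 (6.14%) or WT replicate 2 (2.03%), and the reverse count was 0 without Ern1-LKO replicate 1 (3.36%). It was also 0 at a −log10 q of at least 5 (0.864%), at a fold of at least 5 (0.544%) and among equal numbers of top peaks (0.923%), while a −log10 q of at least 10 gave Prdx4 (0.672%). The Prdx4 peaks of the WT replicates lay at different sites, and its Ern1-LKO replicate 2 peak had a −log10 q of 5.27. Among the 698 best-ranked peaks were Ero1a and Ero1b in both WT libraries, Ero1b in Ern1-LKO replicate 1, and Ero1a and Qsox1 in Ern1-LKO replicate 2. Of all genes 3.54% and 4.01% held such a peak in the WT libraries and 3.58% and 3.83% in the Ern1-LKO libraries. The count was 2.0 ± 0.0 for WT, then 1.5 ± 0.7 for Ern1-LKO (SD, n = 2), a difference of 0.5 within the spread between replicates (exact permutation test, both sides, p = 1.0). Here too all counts but 1 were equal, so this p was fixed and decides nothing. Without Ern1-LKO replicate 1 the difference was 0.0.

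The authors' pooled lists of these groups were close in length, 13841 peaks for WT, then 14428 for Ern1-LKO, at 23122486 and 16282682 kept tags. In each group the replicate with the shorter list had the more kept tags. These were 14072378 in WT replicate 1, with 6258 peaks, and 11995890 in Ern1-LKO replicate 1, with 698. The part of these libraries in the pooled ranks and folds was not tested. The pooled lists held a peak for 7 members (48.6% of all genes) and 5 members (46.4%). In WT and Ern1-LKO in turn, Ero1b ranked 107 and 617 with folds of 27.7 and 10.7, and Ero1a 340 and 1256 with folds of 11.0 and 6.1. Vkorc1l1 ranked 1336 and 12587 and Gpx7 1735 and 3606. Qsox1 was the exception, at 3325 for WT, then 473 for Ern1-LKO, with folds of 5.8 and 9.2. Prdx4 and Qsox2 had a peak in the pooled WT and not in the pooled Ern1-LKO list, as did 7.51% of all genes, and no member (0) the reverse (5.30%). A pooled list is 1 value for a group, so these differences have no replicate check either.

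The second replicates of WT and Ern1-LKO, with 30327 and 30796 peaks, placed each of these genes on the same side as the pooled lists. They were less alike in depth, at 9176542 and 4340956 kept tags, and its part in the ranks was not tested. In WT replicate 2 and Ern1-LKO replicate 2 in turn, the start-site ranks were 154 and 1703 for Ero1b, 273 and 561 for Ero1a, 1483 and 11326 for Vkorc1l1, 1852 and 3857 for Gpx7, 7083 and 23345 for Prdx4, 4097 and 9881 for Qsox2 and 2665 and 504 for Qsox1. These libraries are also part of the pooled lists and so are not independent of them. In the first replicates Ero1b alone could be compared, at folds of 24.4 for WT, then 5.5 for Ern1-LKO. Qsox1 had no peak in either first replicate.

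Other genes of thiol chemistry were counted from lists chosen for their function, with earlier results of these data known. Of 9 disulfide isomerases and partners of the oxidases, start-site peaks in both replicates were found in 9 for Fed, 7 for Fasted, 7 for WT and 6 for Ern1-LKO, and 6 had one in all 8 libraries. The strongest peak of Pdia6, a disulfide isomerase, reached 47.6 and 71.2 for Fed, then 72.7 and 29.4 for Fasted, then 41.2 and 76.5 for WT, then 19.6 and 74.7 for Ern1-LKO. It ranked from 4 to 18 over the libraries. Pdia3, which acts on glycoproteins, and Txndc5 ranked from 2 to 14 and from 4 to 30. All peaks of the 9 oxidases and peroxidases, that of Ero1b in WT replicate 1 at 110 included, ranked below these 3 isomerases. These 3 were the best ranked of the 9 listed. The peak of Ero1b ranked above those of some other listed genes, in part or all of the libraries where they were called.

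Of 8 peroxiredoxins and glutathione peroxidases outside the ER with a promoter window, 6 had a start-site peak in both replicates for Fed, 0 for Fasted, 1 for WT and 0 for Ern1-LKO. Prdx2, a cytosolic peroxiredoxin, had a peak within 5 kb in 7 libraries and at its start in 5. Prdx1, its close relative, had its strongest peak at folds of 16.2 and 21.9 for Fed, then 8.8 in Fasted replicate 1, 11.3 and 36.3 for WT, then 13.2 in Ern1-LKO replicate 2. Of cytosolic thiol reduction genes, 4 of 4 with a window had one for Fed, 1 for Fasted, 2 for WT and 0 for Ern1-LKO. Gclc and Gclm encode the catalytic and the modifier subunit of the first enzyme of glutathione synthesis. Gclc, which has no promoter window, had a peak within 5 kb in 7 libraries, and Gclm had one at its start in 7. Gfer and Chchd4 of the mitochondrial disulfide relay had one in both Fed libraries.

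Of 7 genes of vitamin K-dependent carboxylation with a window, 2 had a start-site peak in both replicates for Fed, 1 for Fasted, 1 for WT and 0 for Ern1-LKO. Ggcx, the carboxylase that uses the vitamin K recycled by Vkorc1, had one in 6 libraries. The folds of its strongest peak were 11.6 and 16.3 for Fed, then 11.1 in Fasted replicate 1, 12.3 and 18.2 for WT, then 7.4 in Ern1-LKO replicate 2. Pros1, which encodes protein S, an anticoagulant cofactor, had a peak within 5 kb in 7 libraries and at its start in 6.

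**Figure D4:**
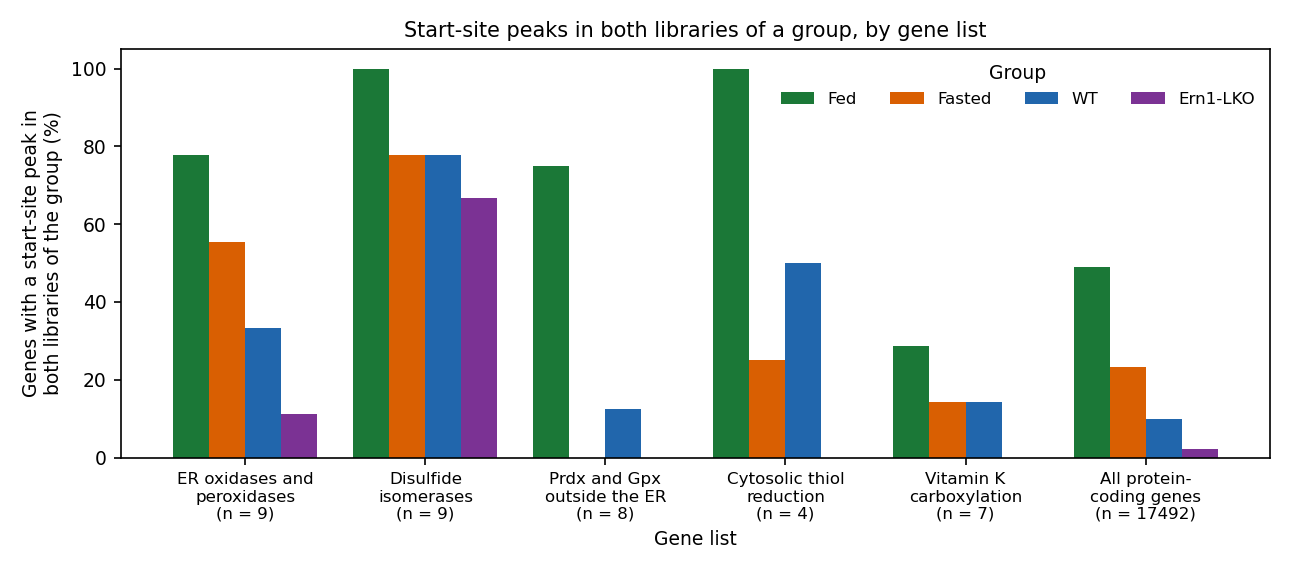
Share of genes (percent, of those with a promoter window, n under each list) with a start-site peak in both libraries of a group, by gene list and group (bar colours). The 9 oxidases and peroxidases (7, 5, 3 and 1 genes) lie between the disulfide isomerases (9, 7, 7 and 6) and all protein-coding genes (49.1%, 23.2%, 9.87% and 2.24%).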

How the data were processed

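Peak lists of 8 immunoprecipitated libraries and 4 pooled groups were used. The tools named per the submitters' processing notes are MACS2 2.2.1, Bowtie2 2.2.5, bcl2fastq and FastQC 0.11.3, with mm10 as the build. Per the file headers, the caller was MACS 2.1.1.20160309 with narrow peaks, a q cutoff of 0.05 and 1 tag kept per position. Each deposited list gives a pileup signal, −log10 p-values and q-values and a fold enrichment ratio at the summit, as the authors made them. The signal was not used. Depth was 4340956 to 17399899 kept tags, and the lists give no counts from which an interval could be computed.

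Summits were assigned to genes within 5 kb of the RefSeq span (GRCm38.p6), with all 9 members and 21887 protein-coding genes treated alike. Promoter windows covered 17492 of those genes. Peaks were ranked by p-value, ties by fold. The members and gene lists were chosen with earlier results of these data known. Named genes are all members, the hepatocyte markers and at most 4 genes of a list, taken by the number of libraries with a peak and then by mean rank. Alternatives were stricter q and fold limits, narrower windows, pooled lists, other numbers of top peaks and each library left out; the start-site distance was added after seeing the data. Counts among equal numbers of top peaks were compared by exact permutation. With 2 libraries a group, not stated to be separate animals, p-values measure only the spread between libraries, which may be technical. The assignment was tested on simulated data, where 700 of 700 planted genes were recovered among 2000 with 0 false calls. Planted summits lay inside the window of the rule and the others outside it, so this checks the code only. Genes with overlapping windows were not simulated. Computation used Python 3.11.15, pandas 2.3.3 and NumPy 2.4.6. Motifs at sites outside the promoter windows were not analysed here.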

Additional observations from a re-analysis of the deposited data

How the results depend on the processing

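Keeping only the 698 best-ranked peaks of each list gave 2, 0, 2 and 0 members in both replicates of Fed, Fasted, WT and Ern1-LKO. It also gave 1 Fed-only member, Ero1a (0.932% of all genes). A −log10 q of at least 5 gave 1 Fed-only member (0.909%). A −log10 q of at least 10 gave 1 Fed-only (0.658%) and 1 WT-only member (0.672%), Prdx4 in each case. It gave 3 and 0 members called in both replicates of WT and of Ern1-LKO. A fold of at least 5 gave 1 Fed-only member and 3 in both WT libraries, and summits within 1 kb of either gene end gave 3 in both WT. The pooled lists gave 2 Fed-only members (9.01% of all genes), 2 WT-only members (7.51%) and 5 in Ern1-LKO (46.4%). Leaving out each library in turn gave 0 to 2 Fed-only members (1.30% to 26.5%) and 0 to 4 WT-only members (0.937% to 15.5%). It gave 5 to 8 members in Fasted (43.6% to 73.1%), 5 to 8 in WT (19.6% to 65.0%) and 1 to 8 in Ern1-LKO (3.58% to 62.4%). With a library left out, the difference among top peaks ranged from 0.0 to 2.0 for Fed minus Fasted and from 0.0 to 1.0 for WT minus Ern1-LKO. It was 1.5 and 1.5 with peaks ranked by fold, and 1.5 and 3.0 with 5000 top peaks (exact permutation p = 0.67 and 0.33 under both). Ern1-LKO replicate 1 held only 698 peaks and could not supply 5000. The 3.0 therefore does not compare equal numbers of peaks. With the shortest list of its own pair as the number, Fed minus Fasted was 2.0 (p = 0.33, exact permutation). Of the recomputed member counts and differences, 86 stayed within 1.5 times the value reported or, for the top-peak differences, kept their direction, and 23 did not. The 86 include counts of 0 that stayed 0. Of the recomputed numbers of libraries with a peak at each gene, 60 stayed within that limit and 12 did not. Replicate numbers are not said to pair libraries. With the replicate number as a block the differences were the same, 1.0 and 0.5 (exact sign-flip p = 1.0 and 1.0). These p-values were fixed as well, since in each comparison the counts of 1 block were equal. Deviations of same-numbered libraries correlated at 0.12 over 9217 genes for Fed and Fasted and at 0.46 over 597 genes for WT and Ern1-LKO. These lists hold no value where nothing was called, so list length limits every absence. Within Fasted, WT and Ern1-LKO the replicate with the shorter list had the more kept tags. The part of depth in any absence was not tested.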
